A study of Mus musculus with 6 samples.

Results

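Genes of glutamate receptor subunits, 4 for ionotropic receptors of the NMDA type (Grin1, Grin2a, Grin2b and Grin3a) and 4 for metabotropic receptors (Grm3, Grm5, Grm7 and Grm8), were followed across the cell types of the mouse CA1 region and between treatments. These 8 of the 20234 genes counted were chosen by name, for questions on the ratio of Grin2a to Grin2b, the receptor make-up of neurons and glia, and levels after erythropoietin (EPO). Single cells were caught in droplets by Drop-seq, in which each transcript is marked near its 3′ end by a cell barcode and a unique molecular identifier (UMI). All mice were male C57Bl6 mice given 1 intraperitoneal injection at postnatal day 28, and CA1 was dissected 6 h afterwards. Placebo mice 1, 3 and 5 received placebo and EPO mice 2, 4 and 6 received EPO at 5000 IU/kg, so that each group has 3 animals. Placebo mice 1 and 3 and EPO mouse 2 also carry the label D1, the other 3 mice D2, and what D stands for is not stated.

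NMDA receptors are cation channels that open when glutamate is bound and the membrane is depolarized, and each contains the obligatory GluN1 subunit encoded by Grin1 together with GluN2 or GluN3 subunits. GluN2B (Grin2b) prevails early in life and gives slow currents, GluN2A (Grin2a) gains ground as hippocampal synapses mature and gives faster ones, and GluN3A (Grin3a) lowers calcium entry. Metabotropic receptors act through G proteins instead: mGlu5 (Grm5) couples to Gq and phospholipase C, mGlu3 (Grm3) couples to Gi and is known from glia as well as neurons, and mGlu7 and mGlu8 (Grm7, Grm8) couple to Gi and sit mainly on presynaptic terminals.

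All 8 genes were located in GRCm38 (mm10), the build of the counts. Grin1 lies at chr2:25291181-25319187, Grin2a at chr16:9567898-9995560, Grin2b at chr6:135713233-136173511, Grin3a at chr4:49661611-49845744, Grm3 at chr5:9485541-9725170 and Grm8 at chr6:27275119-28135178, all on the minus strand, while Grm5 at chr7:87584168-88134907 and Grm7 at chr6:110645581-111567230 lie on the plus strand. These positions are whole gene spans, with exons, introns and untranslated ends. Among overlapping genes that were themselves counted, antisense genes overlap Grin2b and Grm7, and Ppp3r2 lies inside Grin3a on the same strand. Genes absent from the counts overlap Grin1 (Grin1os, antisense) and, on the same strand, Grm3, Grm5 and Grm8. Whether strand was used in counting is not stated, so reads of these neighbours cannot be told apart from those of the receptor with certainty.

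The promoters of a neuronal and a glial member are shown because the levels below turn on this pair: Grin1, the subunit common to all NMDA receptors, and Grm3, the member with the highest levels in glia. RefSeq promoter windows of GRCm38.p6, from 250 bases before to 50 bases after the start, were matched for 4 of the 8 symbols (Grin1, Grm3, Grm7 and Grm8). Capitals mark GGGCGG, the core of a GC box, on either strand. The windows lie at chr2:25319138-25319437 for Grin1 and chr5:9725303-9725602 for Grm3, both read on the minus strand. The Grm3 window lies wholly before the start of the gene span given above, at 9725170, so the RefSeq start differs from that of the span.
Grin1 promoter: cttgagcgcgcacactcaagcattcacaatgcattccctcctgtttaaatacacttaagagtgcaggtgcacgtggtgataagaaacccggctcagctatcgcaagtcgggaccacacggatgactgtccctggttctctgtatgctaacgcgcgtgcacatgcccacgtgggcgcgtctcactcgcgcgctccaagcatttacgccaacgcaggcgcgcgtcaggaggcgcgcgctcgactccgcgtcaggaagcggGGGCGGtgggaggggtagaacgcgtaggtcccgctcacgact
Grm3 promoter: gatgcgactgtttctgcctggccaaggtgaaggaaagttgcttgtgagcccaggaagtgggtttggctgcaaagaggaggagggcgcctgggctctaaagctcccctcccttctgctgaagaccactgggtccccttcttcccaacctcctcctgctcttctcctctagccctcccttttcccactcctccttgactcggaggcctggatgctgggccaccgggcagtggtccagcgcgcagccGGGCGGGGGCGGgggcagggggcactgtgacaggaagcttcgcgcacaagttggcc
The Grin1 window held 33 CG dinucleotides and 1 GC box at a GC content of 60.7%, and the Grm3 window held 11 CG dinucleotides and 2 GC boxes, which follow each other directly, at 63.7%. Over 32851 promoter windows of the same length the median was 7 CG dinucleotides and a GC content of 52.7%, and 35.7% held GGGCGG on either strand. TATAAA, found in 13.6% of windows, was in neither of them. These matches describe the letters of the windows and say nothing of a factor bound there.

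Of 6000 barcodes deposited, 1000 per mouse, 973 had 1001 to 8000 detected genes and at most 40% mitochondrial UMIs. Cell numbers ran from 43 in placebo mouse 3 to 271 in EPO mouse 4, total UMIs per mouse from 204479 to 1948490, and the median mitochondrial share from 3.58% to 18.3%. In 26 cases a retained barcode sequence of EPO mouse 4 was also a retained barcode of placebo mouse 1, and in all 26 the EPO mouse 4 cell correlated best with its namesake. These cells held 6.60% of the UMIs of EPO mouse 4 and 45.3% of those of placebo mouse 1, and results were repeated without them in EPO mouse 4 or in both mice. Clusters were named from marker genes and are called "like" the type they resemble. They comprised 385 CA1-like, 87 subiculum-like and 147 deep-layer-like cells, which together form the 619 glutamatergic-like cells, and 45 GABAergic-like, 77 astrocyte-like, 133 oligodendrocyte-like and 42 OPC-like cells (oligodendrocyte precursor cells), beside 39 endothelial-and-mural-like and 18 microglia-like cells. The summed CA1 marker list reached 1171 to 1792 UMIs per 1000000 UMIs (CPM) in CA1-like cells, 777 to 1138 in subiculum-like and 422 to 774 in deep-layer-like cells. The deep-layer list reached 351 to 868, 284 to 649 and 131 to 176 CPM in deep-layer-like, subiculum-like and CA1-like cells, so that subiculum-like and deep-layer-like cells overlapped on it, and 6 of its 10 genes were detected in at least 10% of the deep-layer-like cells. The subiculum list reached 1458.9 to 2106.5, 491 to 1137 and 51.7 to 100 CPM in subiculum-like, deep-layer-like and CA1-like cells. In deep-layer-like cells its median of 719 CPM was above the 592 CPM of their own list. OPC-like cells also carried mural genes, among them Rgs5 and Myh11, with a summed endothelial and mural list of 2914 to 9983 against an OPC list of 4246 to 10241 CPM.

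The 8 genes gave 11884 UMIs in retained cells, of which Grin2b gave 5513, Grm5 3576, Grin1 1501, Grm7 374, Grin3a 334, Grm3 256, Grin2a 201 and Grm8 129. At least 1 UMI was seen in 69.7% of cells for Grin2b, 64.6% for Grm5, 54.6% for Grin1 and 15.5% to 23.8% for Grin2a, Grin3a, Grm3 and Grm7, but in 7.40% for Grm8. Below, a level is a gene's UMIs per 1000000 UMIs of all genes (CPM), summed over the cells of a type in 1 mouse, and means are given with the SD over mice with at least 5 such cells. Since UMIs tag 3′ ends, levels were not divided by gene length, and levels of different genes compare captured transcripts.

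Grin2b, encoding GluN2B, was the most abundant member and stood highest in CA1-like cells. Its level there was lowest at 1120, 1246 at the median and highest at 1564 CPM over the 6 mice (mean 1280 ± 153 SD). In deep-layer-like cells it ran from 561 over a median of 766 to 897 CPM (743 ± 123, n = 6). CA1-like cells were above deep-layer-like cells in 6 of 6 mice, by 537 ± 108 CPM (SD), with a two-sided exact sign-flip permutation test giving p = 0.03125, the smallest that 6 mice allow. For each member the types were ordered by mean level and each was compared in this way with the next one down. The pairs were thus picked by the values tested, and these p values were not adjusted. In subiculum-like cells the level was 510 and 446 CPM (placebo mice 1 and 5) and 391, 586 and 390 CPM (EPO mice 2, 4 and 6) (465 ± 83.8, n = 5). GABAergic-like cells had 386 CPM in placebo mouse 5 and 684 and 679 CPM in EPO mice 4 and 6 (583 ± 171, n = 3), and thus overlapped with both of the other neuron types below CA1. In glia, astrocyte-like cells ran from 0 over 40.6 to 113 CPM and oligodendrocyte-like cells from 23.1 over 35.9 to 75.5 CPM, with no order between them (astrocyte-like higher in 3 of 6 mice, exact permutation p = 0.844).

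Grin1, encoding the subunit that all NMDA receptors share, followed another order among neurons. CA1-like cells ran from 223 over a median of 301 to 360 CPM (295 ± 50, n = 6). Deep-layer-like cells ran from 247 over 350 to 596 CPM (391 ± 135, n = 6) and were above CA1-like cells in 5 of 6 mice (exact permutation p = 0.125). The ranges of these neuron types overlapped. Subiculum-like cells had 135 and 223 CPM (placebo mice 1 and 5) and 323, 179 and 196 CPM (EPO mice 2, 4 and 6) (211 ± 70.2, n = 5), and GABAergic-like cells 168, 173 and 126 CPM in placebo mouse 5 and EPO mice 4 and 6 (156 ± 26.0, n = 3). CA1-like cells were above subiculum-like cells in 4 of 5 mice (exact permutation p = 0.125), a pair that the fit across genes given below called different, and subiculum-like cells were above GABAergic-like cells in 3 of 3 mice (exact permutation p = 0.25, the smallest that 3 mice allow). Glia were far below, at 0 over 0 to 18.0 CPM in astrocyte-like and 0 over 10.1 to 44.4 CPM in oligodendrocyte-like cells. A pooled level of 794 CPM in the 18 microglia-like cells rested on 1 cell with 38 of the 41 UMIs, without which it was 64.3 CPM.

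Grin2a, encoding GluN2A, was low in every type. CA1-like cells had the highest mean and ran from 17.2 over 45.5 to 82.5 CPM (45.7 ± 22.9, n = 6), and deep-layer-like cells from 0 over 29.8 to 61.8 CPM (29.9 ± 22.1, n = 6; CA1-like higher in 5 of 6 mice, exact permutation p = 0.344). Subiculum-like cells had 0 and 33.8 CPM (placebo mice 1 and 5) and 8.49, 12.4 and 12 CPM (EPO mice 2, 4 and 6) (13.3 ± 12.5), and GABAergic-like cells 0, 24.7 and 25.2 CPM in placebo mouse 5 and EPO mice 4 and 6. The order of these 4 neuron types was thus not resolved for Grin2a by neighbouring ranges. CA1-like and subiculum-like cells were not neighbours in it, and the fit across genes given below called that pair different. No Grin2a UMI was found in any astrocyte-like cell, which allows a level of up to 10.7 CPM over the 6 mice (3 counts, counting error only).

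Grin3a, encoding GluN3A, was the NMDA receptor member whose levels in neurons and glia lay closest together. CA1-like cells ran from 47.7 over 55.2 to 62.3 CPM (55.0 ± 5.26) and deep-layer-like cells from 0 over 61.5 to 111 CPM (58.6 ± 41.1). GABAergic-like cells had the highest mean, with 59.3 CPM in placebo mouse 5 and 132 and 151 CPM in EPO mice 4 and 6 (114 ± 48.4). Astrocyte-like cells ran from 0 over 57.0 to 162 CPM (64.9 ± 56.6), overlapping with each neuron type. OPC-like cells had 110 CPM in placebo mouse 1 and 0, 82.9 and 52.2 CPM in EPO mice 2, 4 and 6 (61.4 ± 47.4), while the mean of oligodendrocyte-like cells was 5.25 CPM. Subiculum-like cells stood at 40.0 ± 18.4 CPM and above oligodendrocyte-like cells in 5 of 5 mice (exact permutation p = 0.0625, the smallest that 5 mice allow).

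**Figure D1:**
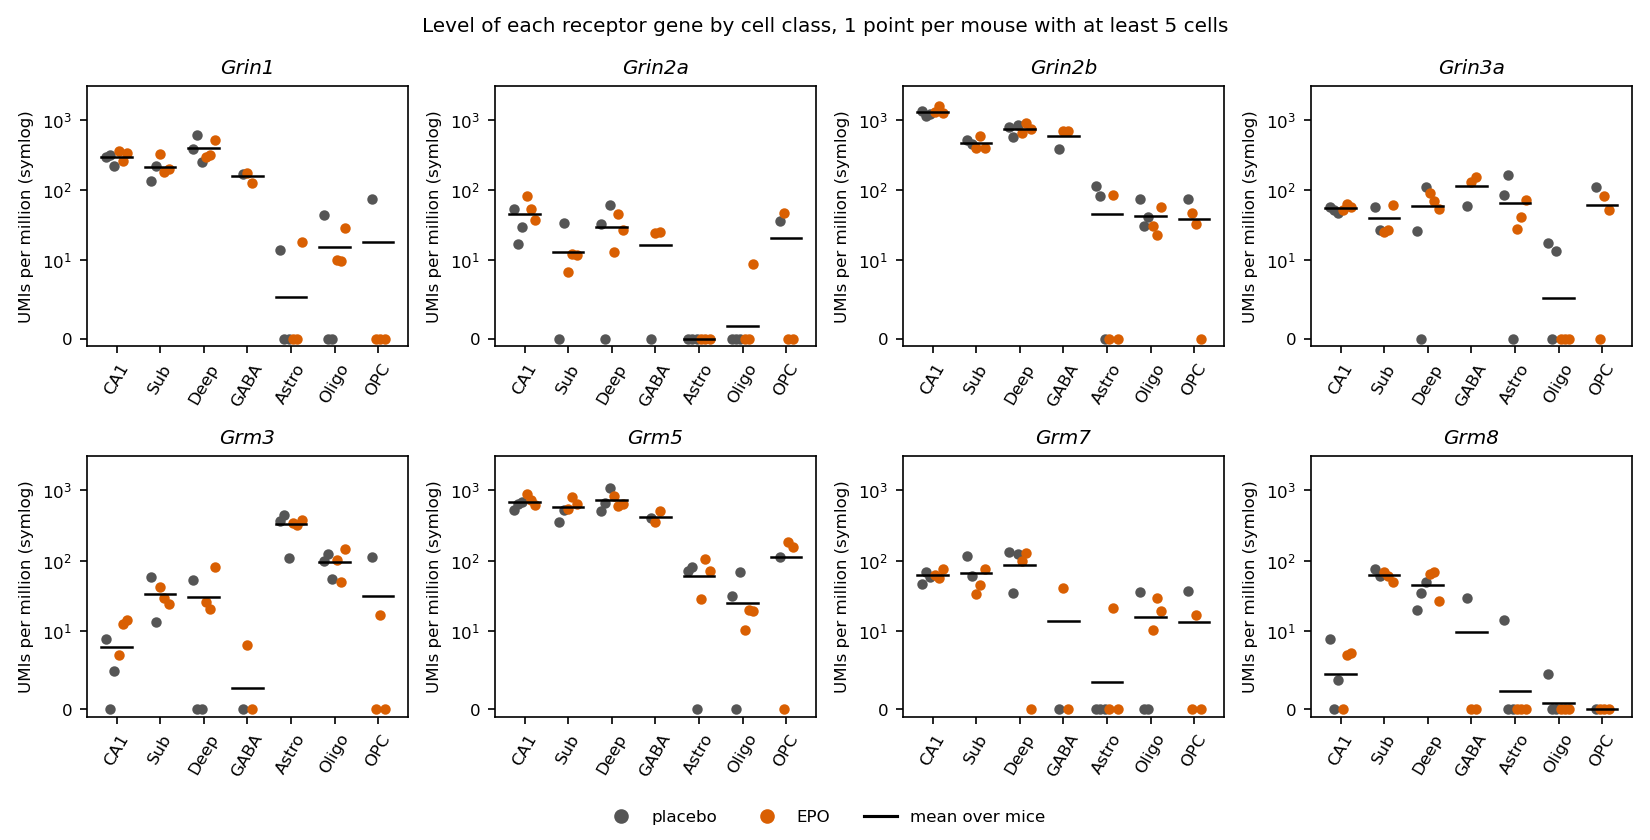
Level of each of the 8 receptor genes in 7 cell types (CA1-like, subiculum-like, deep-layer-like, GABAergic-like, astrocyte-like, oligodendrocyte-like and OPC-like), in CPM on an axis that is linear near 0 and logarithmic above; each point is 1 mouse with at least 5 cells of the type (grey placebo, orange EPO) and each line the mean. Grin2b, Grin1 and Grm5 stand high in the 4 neuron types and low in glia, whereas Grm3 is highest in astrocyte-like cells, at 109 to 447 CPM.

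Grm5, the Gq-coupled mGlu5, was the most abundant metabotropic member with overlapping levels in the 3 glutamatergic types. CA1-like cells ran from 517 over 652 to 884 CPM (676 ± 123) and deep-layer-like cells from 500.4 over 653 to 1062 CPM (714 ± 200), with the higher mean in deep-layer-like cells but 3 of 6 mice in each direction. Subiculum-like cells had 356 and 527 CPM (placebo mice 1 and 5) and 535, 794 and 632 CPM (EPO mice 2, 4 and 6) (569 ± 160). GABAergic-like cells had 405, 354 and 503 CPM in placebo mouse 5 and EPO mice 4 and 6 (421 ± 75.6), below subiculum-like cells in 3 of 3 mice. Among glia OPC-like cells had the highest mean, with 110 CPM in placebo mouse 1 and 0, 182 and 157 CPM in EPO mice 2, 4 and 6 (112 ± 80.6), against 59.5 ± 38.4 CPM in astrocyte-like and 24.8 ± 23.8 CPM in oligodendrocyte-like cells. OPC-like cells were above astrocyte-like cells in 3 of 4 mice, which an exact permutation test did not separate (p = 0.25).

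Grm3, the Gi-coupled mGlu3, ran the opposite way. Astrocyte-like cells had 368, 447 and 109 CPM (placebo mice 1, 3 and 5) and 336, 315 and 378 CPM (EPO mice 2, 4 and 6) (326 ± 115, n = 6), and oligodendrocyte-like cells ran from 49.5 over 99.9 to 143 CPM (94.9 ± 36.9). Astrocyte-like cells were above oligodendrocyte-like cells in 6 of 6 mice, by 231 CPM on average (exact permutation p = 0.03125). CA1-like cells ran from 0 over 7.90 to 14.4 CPM (7.93 ± 5.23), deep-layer-like cells from 0 over 23.2 to 80.1 CPM (29.9 ± 31.4), and subiculum-like cells averaged 33.5 ± 17.1 CPM. Oligodendrocyte-like cells were above subiculum-like cells, the highest neuron type, in 5 of 5 mice (exact permutation p = 0.0625). The summed astrocyte marker list reached 47.7 to 390 CPM in CA1-like, 129 to 578 in subiculum-like and 61.8 to 612 in deep-layer-like cells, against 12667 to 31733 in astrocyte-like cells, and its part in the neuronal Grm3 level was not tested.

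Both group III receptors, Grm7 and Grm8, were seen mainly in glutamatergic-like cells but in different ones. Grm7 averaged 85.8 ± 55.3 CPM in deep-layer-like cells (0 over 110 to 132), 66.3 ± 31.9 CPM in subiculum-like cells and 61.4 ± 10.3 CPM in CA1-like cells (46.8 over 59.7 to 76.4). Those 3 types overlapped, and CA1-like cells were above oligodendrocyte-like cells in 6 of 6 mice, by 45.6 CPM (exact permutation p = 0.03125). Grm8 had 77.0 and 60.8 CPM in subiculum-like cells of placebo mice 1 and 5 and 67.9, 59.6 and 50.3 CPM in those of EPO mice 2, 4 and 6 (63.1 ± 9.99). Deep-layer-like cells ran from 19.8 over 42.2 to 69.6 CPM (44.3 ± 20.5) and CA1-like cells from 0 over 5.30 to 8.92 CPM (4.45 ± 3.84). No CA1-like value reached the range of either of the other glutamatergic types. With the shared barcodes left out of both mice the subiculum-like mean of Grm8 was 46.2 CPM and the CA1-like mean 5.31 CPM.

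Glial types were compared with all glutamatergic-like cells by a quasi-likelihood test in edgeR on UMIs summed per mouse and type, with the mouse as a block and Benjamini-Hochberg adjustment over all genes tested. The filter on low counts lets a gene pass through the sums of 1 type alone. Counts of members lower or higher thus depend in part on that filter. Glutamatergic-like cells had 1018 ± 98.1 CPM Grin2b, 658 ± 109 CPM Grm5, 299 ± 66.6 CPM Grin1, 67.9 ± 5.33 CPM Grm7, 50.3 ± 9.57 CPM Grin3a, 34.6 ± 14.9 CPM Grin2a, 21.6 ± 8.0 CPM Grm8 and 14.5 ± 9.65 CPM Grm3 (n = 6). In oligodendrocyte-like cells 5 members passed the filter on low counts, of which 4 were lower and 1 higher, where 35.1% of all 4740 genes tested were called lower and 29.5% higher (1665 and 1397 genes, or 2155 and 1082 with total UMIs in place of trimmed-mean scaling, which moved the median of all genes from −0.12 to −0.44 on the log2 scale). Grin2b fell by 4.30 on the log2 scale (SE 0.261, edgeR adjusted p = 2.75e-21), Grm5 by 4.44 (SE 0.290, adjusted p = 5.95e-20), Grin1 by 3.60 (SE 0.314, adjusted p = 3.97e-15) and Grm7 by 1.36 (SE 0.377, adjusted p = 0.00138). Grm3 was higher in oligodendrocyte-like cells in 6 of 6 mice, with a log2 fold change of 2.59 (SE 0.322, edgeR adjusted p = 3.99e-10). It no longer passed the filter without EPO mouse 4, or when the shared barcodes were left out of EPO mouse 4 or of both mice, and in the last case its oligodendrocyte-like mean was 89.1 CPM. The other 3 members were left out by the filter. Without it Grin3a fell by 2.90 (SE 0.541, edgeR adjusted p = 7.26e-07, where 16.8% of genes were called lower), and Grin2a and Grm8 were called lower on 1 UMI each, at 0.0307 times (exact 95% counting interval 0.000773 to 0.173) and 0.0474 times (0.00119 to 0.269) the glutamatergic-like level. The summed glutamatergic marker list was 51.0 to 249 CPM in oligodendrocyte-like cells and 131 to 486 CPM in astrocyte-like cells, and its part in the low neuronal receptor levels of glia was not tested.

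In astrocyte-like cells 3 members passed the filter and all 3 were lower, where 33.8% of 1559 genes were called lower and 23.7% higher (527 and 369 genes, or 762 and 230 with total UMIs, with medians of −0.19 and −0.72). All 3 reached the filter through the glutamatergic-like sums, where they are high. That all 3 were lower is thus tied to the filter and is no result of its own. Grin2b fell by 3.93 on the log2 scale (SE 0.407, edgeR adjusted p = 1.19e-11) and Grm5 by 2.90 (SE 0.371, adjusted p = 3.64e-09). Grin1 fell as well, but rested on 2 UMIs in all astrocyte-like cells, a level 0.0262 times that of glutamatergic-like cells (exact 95% counting interval 0.00317 to 0.0949). Grm3, left out by the filter, had a log2 fold change of 3.99 without that filter (SE 0.390, edgeR adjusted p = 1.24e-22, where 6.31% of genes were called higher). Grin3a did not pass the test there (log2 fold change −0.09, adjusted p = 0.894), with 64.9 CPM in astrocyte-like against 50.3 CPM in glutamatergic-like cells. Without the filter Grin2a, with 0 UMIs in astrocyte-like cells, and Grm7, on 1 UMI and at 0.0523 times the glutamatergic-like level (0.00132 to 0.294), were called lower, where 13.1% of genes were, and Grm8, also on 1 UMI, was not (adjusted p = 0.0612). Grin3a was thus the NMDA receptor member that did not pass the test in astrocyte-like cells.

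In OPC-like cells of 4 mice 6 members passed the filter and 4 were lower, where 16.2% of 6311 genes were called lower and 7.26% higher (1022 and 458 genes, or 706 and 690 with total UMIs, with medians of −0.40 and −0.01). These 6 also reached the filter through the glutamatergic-like sums, so the count of 4 lower is tied to it. Grin2b had 73.7 CPM in placebo mouse 1 and 47.0, 33.2 and 0 CPM in EPO mice 2, 4 and 6, and fell by 5.05 on the log2 scale (SE 0.566, edgeR adjusted p = 4.48e-17). Grm5 fell by 2.75 (SE 0.469, adjusted p = 1.14e-07). Grin1 and Grm7 were called on 2 UMIs each, at 0.0554 times (exact 95% counting interval 0.00671 to 0.201) and 0.224 times (0.0270 to 0.818) the glutamatergic-like level. The call of Grm7 (edgeR adjusted p = 0.0498) was lost without any 1 of the 4 mice (adjusted p = 0.0810 without placebo mouse 1, 0.123 without EPO mouse 2, 0.157 without EPO mouse 4 and 0.146 without EPO mouse 6) and without clusters 2 and 4 of the CA1-like cells (0.0709). Grin3a had a log2 fold change of 0.01 (SE 0.663, adjusted p = 0.992) and Grin2a, on 2 UMIs, an adjusted p of 0.266. Of those left out by the filter, Grm8, with 0 UMIs in OPC-like cells, was called lower without it (edgeR adjusted p = 0.0446, where 8.41% of genes were), and Grm3 was not (adjusted p = 0.912). The mural genes in this cluster were given above, and their part in these values was not tested.

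The comparison of GABAergic-like with glutamatergic-like cells rested on 45 GABAergic-like cells, of which those of 3 mice could be used. Of 7 members that passed the filter 1 was lower, where 5.57% of 7650 genes were called lower and 4.14% higher. That member was Grin2b, with a log2 fold change of −0.83 (SE 0.278, edgeR adjusted p = 0.0488), and the call was lost without placebo mouse 5 (adjusted p = 0.426) or EPO mouse 4 (adjusted p = 0.264), and also without cluster 2 (adjusted p = 0.123) or clusters 2 and 4 (adjusted p = 0.360) of the CA1-like cells. Grin3a was higher in GABAergic-like cells of 3 of 3 mice, at 114 against 54.1 ± 4.80 CPM, but did not pass the test (log2 fold change 1.07, SE 0.433, adjusted p = 0.131). Grin1 (−0.56, adjusted p = 0.389), Grm5 (−0.67, adjusted p = 0.149), Grm7 (−1.79, adjusted p = 0.107), Grin2a (−1.14, adjusted p = 0.501) and Grm8, on 3 UMIs, did not pass it either. Without EPO mouse 4 the value of Grm7 passed (adjusted p = 0.0391), and without EPO mouse 6 that of Grm5 did (adjusted p = 0.0480).

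The make-up of the 8 genes followed these levels. Grin2b gave 53.4% of their UMIs in CA1-like cells (46.7% to 57.0% per mouse), followed by Grm5 with 27.7%, Grin1 with 11.6% and 2.48% or less for each of the other 5. In subiculum-like cells pooled over mice Grm5 led with 41.9% before Grin2b with 31.2%, and Grm8 reached 3.84%. Grm5 was ahead there in placebo mouse 5 and in EPO mice 2, 4 and 6, whereas Grin2b was ahead in placebo mouse 1 (39.0% against 27.2%) and in the 2 cells of placebo mouse 3. Deep-layer-like cells lay between, with 37.4% Grin2b, 32.5% Grm5 and 16.2% Grin1, and in GABAergic-like cells Grin3a gave 8.03% beside 43.5% Grin2b. In astrocyte-like cells Grm3 gave 63.4% of 142 UMIs (55.3% or more in each mouse), Grin3a and Grm5 12% each and Grin2b 9.86%. In oligodendrocyte-like cells Grm3 gave 41.8% of 177 UMIs, and in OPC-like cells Grm5 gave 40% and Grin3a 20% of 45 UMIs.

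**Figure D2:**
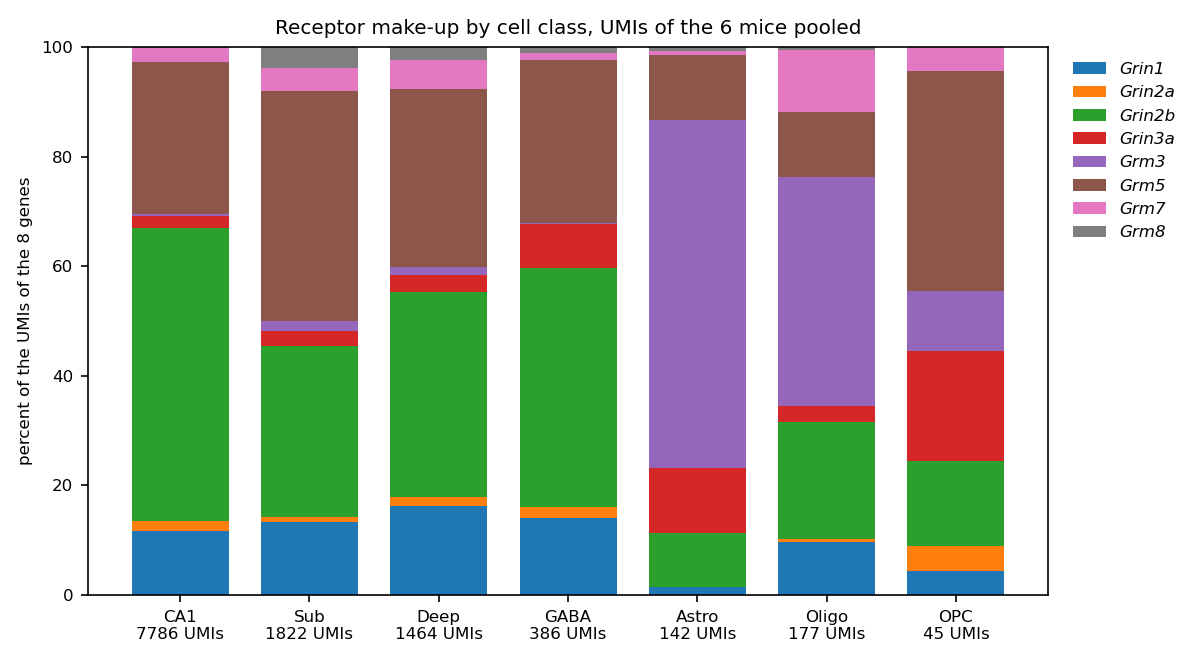
Share of each receptor gene in the UMIs of the 8 genes, in percent, as stacked bars for 7 cell types with the 6 mice pooled; the number of UMIs stands under each bar. Grin2b takes 53.4% in CA1-like cells, Grm5 41.9% in subiculum-like cells and Grm3 63.4% in astrocyte-like cells.

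The neuron types within the glutamatergic-like cells were then compared with each other, a comparison added after the levels had been seen. Between subiculum-like and CA1-like cells of 5 mice 7 members passed the filter, 3 lower and 1 higher in subiculum-like cells, where 13.5% of 6468 genes were called lower and 12.8% higher (873 and 826 genes, or 694 and 1179 with total UMIs, with medians of 0.01 and 0.13). Grin2b was lower, at 465 against 1312 ± 147 CPM, with a log2 fold change of −1.62 (SE 0.136, edgeR adjusted p = 8.25e-13). Grin2a was lower as well, at 13.3 against 51.4 CPM (log2 fold change −1.90, SE 0.408, edgeR adjusted p = 0.000354), and so was Grin1 (−0.61, SE 0.161, adjusted p = 0.00355, and 0.0534 without EPO mouse 6). Of the 4 clusters of CA1-like cells, clusters 2 and 4 are described below as the least certain in name. Without both the log2 fold change of Grin1 was −0.14 (edgeR adjusted p = 0.650), and without cluster 2 alone or both Grin2a no longer passed the filter, while Grin2b was still called lower and Grm8 still higher. Grm8 was higher in subiculum-like cells in 5 of 5 mice, at 63.1 against 5.34 CPM (log2 fold change 3.30, SE 0.406, edgeR adjusted p = 2.10e-08). It no longer passed the filter when the shared barcodes were left out of both mice. Grm5 (−0.36, adjusted p = 0.0583), Grin3a (−0.60, adjusted p = 0.114) and Grm7 (−0.07, adjusted p = 0.879) did not pass the test, and Grm5 passed it without EPO mouse 4 (adjusted p = 0.0308). Grm3, below the filter, had 33.5 against 9.51 CPM and was higher in 5 of 5 mice (without the filter log2 fold change 1.34, SE 0.438, adjusted p = 0.0236, where 4.35% of genes were called higher).

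Between deep-layer-like and CA1-like cells of 6 mice the calls depended on how libraries were scaled. With trimmed-mean scaling 5 members passed the filter and 3 of them were higher in deep-layer-like cells and 0 lower, where 23.8% of 3631 genes were called higher and 25.3% lower. With total UMIs 1 was higher and 1 lower, the median of all genes moved from −0.03 to −0.47 on the log2 scale, and calls over all genes shifted from 865 higher and 919 lower to 355 higher and 1584 lower. Grm7 was higher under both, with a log2 fold change of 1.27 (SE 0.288, edgeR adjusted p = 9.78e-05) and, with total UMIs, 0.82 (adjusted p = 0.0137). Not every mouse went this way. As a share of the UMIs of the 8 genes, Grm7 was 0% in deep-layer-like against 3.23% in CA1-like cells of EPO mouse 6. In placebo mouse 3 it was 1.85% against 3.13%, and in the other mice the share was higher in deep-layer-like cells. Grin1 had 0.72 (SE 0.177, adjusted p = 0.000343) and, with total UMIs, 0.27 (adjusted p = 0.209). Grm5 had 0.48 (SE 0.158, adjusted p = 0.00756) and, with total UMIs, 0.03 (adjusted p = 0.895), and 0.104 was its adjusted p without placebo mouse 5. Grin2b went the other way, at −0.35 (SE 0.157, adjusted p = 0.0573) and, with total UMIs, −0.80 (adjusted p = 2.34e-05), and its adjusted p was 0.0160 without placebo mouse 3 and 0.0480 without placebo mouse 5. Grin3a had 0.67 (adjusted p = 0.0826, 0.0294 without placebo mouse 1, 0.0359 without cluster 2 of the CA1-like cells and 0.0144 without clusters 2 and 4). Without those 2 clusters the value of Grin2b turned to 0.12. Grm8, below the filter, was higher in deep-layer-like cells in 6 of 6 mice (44.3 against 4.45 CPM) and had a log2 fold change of 3.17 without the filter (SE 0.512, edgeR adjusted p = 3.17e-08, where 4.23% of genes were called higher). Grm3 and Grin2a, also below it, had 29.9 against 7.93 CPM (log2 fold change 1.67, adjusted p = 0.0187) and 29.9 against 45.7 CPM (−0.52, adjusted p = 0.523). Deep-layer-like cells had a median mitochondrial share of 20.8% and 3830 UMIs per cell against 5667 UMIs in CA1-like cells, and the part of cell quality in these values was not tested. Under a limit of 20% mitochondrial UMIs the adjusted p of Grin1 was 0.105.

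**Figure D3:**
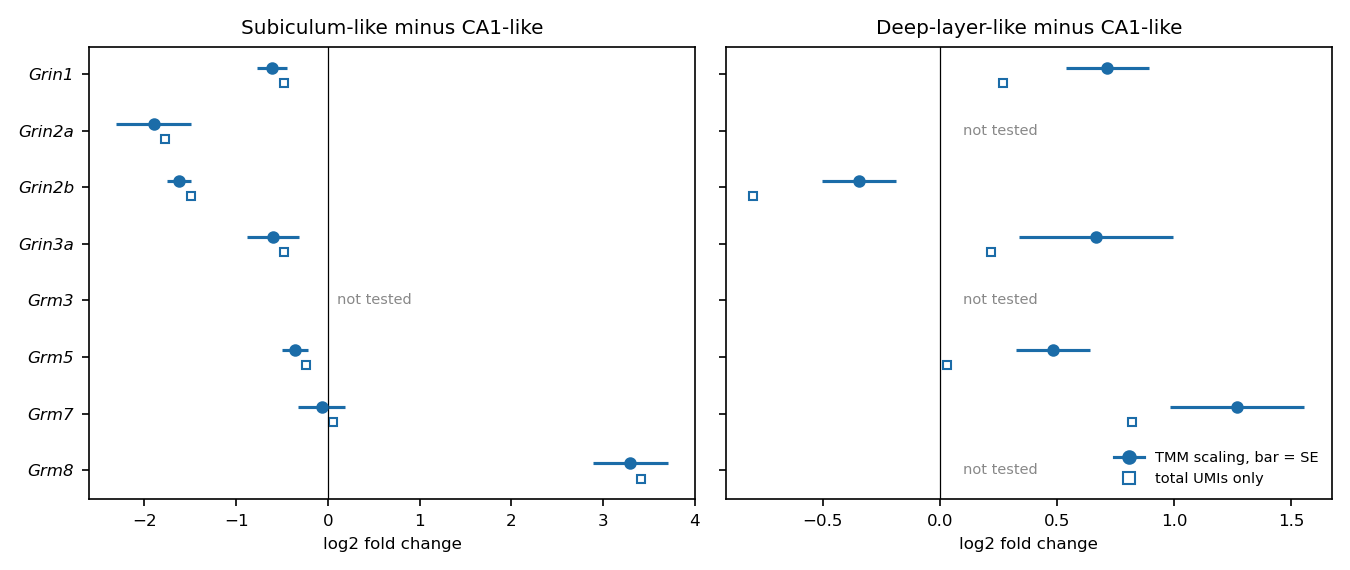
Log2 fold change of each receptor gene between subiculum-like and CA1-like cells and between deep-layer-like and CA1-like cells; filled circles with SE bars use trimmed-mean scaling, open squares total UMIs, and genes left out by the filter on low counts are marked as not tested. Grin2b, Grin2a and Grin1 lie below 0 and Grm8 at 3.30 in the first comparison, and in the second the values with total UMIs lie to the left of those with trimmed-mean scaling.

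CA1-like cells were themselves made up of 4 clusters that differed in depth and in the mice they came from. Cluster 10 held 14 cells of placebo mouse 1 and 21 of EPO mouse 4, the mice with shared barcodes, and 0 of the others. Cluster 3 held 64 of its 120 cells from placebo mouse 5 and 1 from placebo mouse 1. The levels that follow are pooled over mice, and the part of the mouse in them was not tested. Clusters 2 and 4, with a median of 3612 and 4200 UMIs per cell, had 1575 and 2001 CPM Grin2b, while clusters 3 and 10, with 10218 and 12960 UMIs, had 1046 and 1113 CPM. Grin1 ran with it (391 and 404 CPM against 235 and 199 CPM), and so did Grin2a (87.2 and 71.1 CPM against 28.7 and 35.8 CPM). Grm5 stood at 665 and 1070 CPM against 600 and 534 CPM. Levels of these 4 members were thus higher in both of the shallower clusters. The clusters were formed on expression, Grin2b is among the leading genes of cluster 4, and clusters 2 and 10 have no listed marker among their 10 leading genes, so these values are given without a test. Of these 4 clusters the naming of 2 (131 cells) and 4 (99 cells) was the least certain. The marker score, a mean over a list of z-scores between clusters, was −0.40 for CA1 in cluster 2, below its CA3 score of −0.32, and 0.26 for CA1 in cluster 4, below its dentate granule score of 0.29. Of the CA1 list 5 and 7 of 8 genes were detected in at least 10% of the cells of these clusters, and of the CA3 list 0 and 1 of 6 and of the dentate granule list 0 and 1 of 6, under the 3 that a name required. The subiculum-like cluster scored 1.58 for subiculum, 1.36 for dentate granule and 1.08 for CA3. Of its dentate granule list 1 of 6 and of its CA3 list 2 of 6 genes were detected in this way. Deep-layer-like cells scored 1.45 for deep layers and 0.70 for subiculum.

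The share of Grin2a in the UMIs of Grin2a and Grin2b together was small in every neuron type. It was 3.52% over all cells (201 of 5714 UMIs, exact 95% interval 3.06% to 4.03%), or 27.4 Grin2b UMIs for each Grin2a UMI, and 3.48% in CA1-like cells (150 of 4311, 2.95% to 4.07%). It was 2.73% in subiculum-like (16 of 585, 1.57% to 4.4%), 4.2% in deep-layer-like (24 of 572, 2.71% to 6.18%) and 4.55% in GABAergic-like cells (8 of 176, 1.98% to 8.76%). These intervals overlap and cover counting error only. Astrocyte-like cells had 0 of 14 and oligodendrocyte-like cells 1 of 39 UMIs, too few to give a share. Per mouse 4 pairs of types were compared by two-sided exact sign-flip permutation tests. CA1-like minus subiculum-like cells came to 0.903 ± 3.55 percentage points (SD, 5 mice, higher in 3), CA1-like minus deep-layer-like cells to −0.156 ± 2.90 (6 mice, higher in 2), deep-layer-like minus subiculum-like cells to 1.39 ± 1.88 (5 mice, higher in 3) and CA1-like minus GABAergic-like cells to −1.91 ± 5.09 (4 mice, higher in 1). None of the 4 passed the test (adjusted exact permutation p = 0.812 each), and in each pair the SD over mice was larger than the mean difference. Without integration of the clustering, deep-layer-like minus subiculum-like cells came to 2.11 ± 1.08 points, higher in 5 of 5 mice (exact permutation p = 0.0625, the smallest that 5 mice allow, and 0.25 adjusted). Within CA1-like cells, pooled over mice, the share was 5.25% (3.89% to 6.90%) in cluster 2 and 3.43% (2.44% to 4.68%) in cluster 4. It was 2.67% (1.95% to 3.57%) in cluster 3 and 3.12% (1.92% to 4.78%) in cluster 10. These clusters also differed in the mice they came from, as given above.

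**Figure D4:**
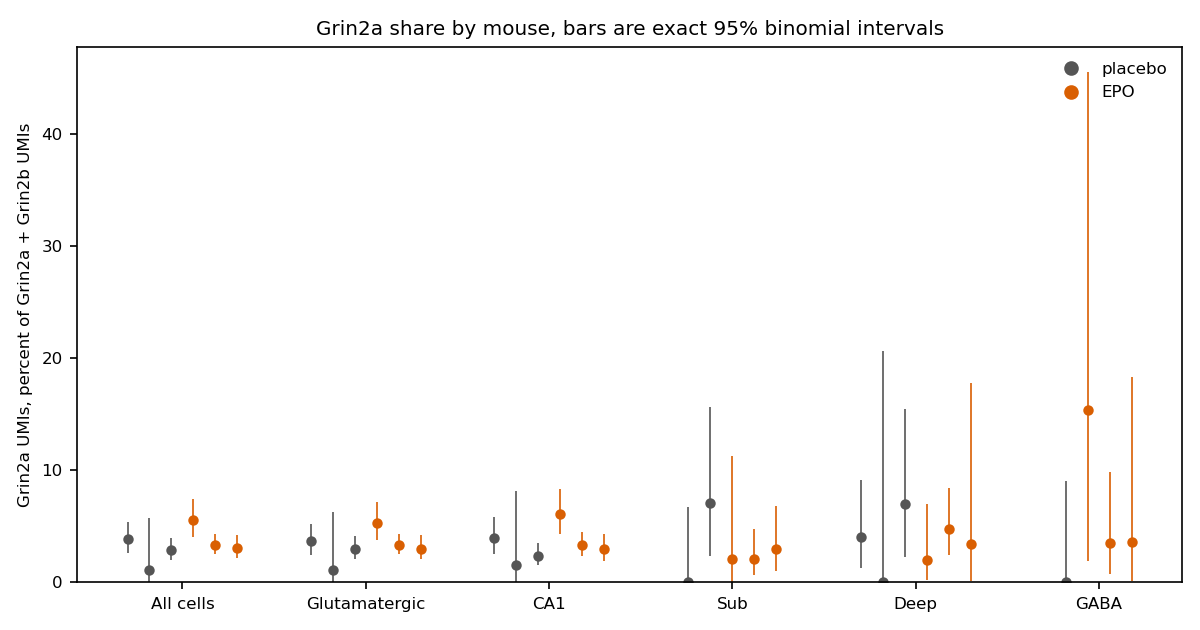
Grin2a UMIs as a percentage of Grin2a and Grin2b UMIs in all cells, glutamatergic-like cells and 4 neuron types; each point is 1 mouse with at least 10 such UMIs (grey placebo, orange EPO) and bars are exact 95% binomial intervals of the counts. In glutamatergic-like cells the points lie between 1.15% and 5.28% with overlapping groups.

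How many cells carry a transcript was read after thinning every cell to 1500 UMIs, since depth differs between types (median 5667 UMIs in CA1-like, 8509 in subiculum-like, 5319 in oligodendrocyte-like and 3079 in astrocyte-like cells). A Grin2b UMI was then found in 84.9% of CA1-like cells (exact 95% interval 81.0% to 88.4%; 99.2% before thinning), 49.4% of subiculum-like, 54.4% of deep-layer-like and 57.8% of GABAergic-like cells. Oligodendrocyte-like cells, taken as background for a neuronal transcript, gave 3.76% (1.23% to 8.56%). The share of cells with Grin2b was thus above that background in each neuron type. These shares and intervals pool the cells of all mice and leave out the spread between mice. Grm3 was found in 31.2% of astrocyte-like cells (21.1% to 42.7%; 58.4% before thinning), 8.27% of oligodendrocyte-like and 1.04% of CA1-like cells. Grm8 was found in 9.20% of subiculum-like (4.05% to 17.3%), 8.16% of deep-layer-like (4.29% to 13.8%) and 1.30% of CA1-like cells, and in 0 of 133 oligodendrocyte-like cells, which allows a share of up to 2.26% of cells with a UMI at this depth and sets no limit on cells that express the gene (1 of them had a Grm8 UMI before thinning). Grm5 was found in 64.9% of CA1-like cells, 50.6% of subiculum-like, 52.4% of deep-layer-like and 37.8% of GABAergic-like cells against 1.5% of oligodendrocyte-like cells, and in 14.3% of OPC-like cells (5.43% to 28.5%). Grin1 and Grin2b occurred in the same cell in 31.2% and Grin2a and Grin2b in 7.79% (5.32% to 10.9%) of CA1-like cells, at this depth. Singly, Grin1 was found in 37.9% and Grin2a in 9.61% of these cells. In subiculum-like cells Grin1 was found in 24.1%, and together with Grin2b in 4.60%. Whether these joint shares differ from those of genes occurring independently was not tested. Grin3a was found in 10.1% of CA1-like and 9.09% of astrocyte-like cells (3.73% to 17.8%) against 2.26% of oligodendrocyte-like cells.

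EPO and placebo were compared over mice, 3 against 3. By edgeR on all cells and on glutamatergic-like cells all 8 members were tested and 0 were called, where 0% of 10043 and 0% of 8522 genes were called (127 and 158 genes at an unadjusted p under 0.05). limma called 0 genes in either, and DESeq2 called 1 and 0. In oligodendrocyte-like cells Grm3 was the member tested, with a log2 fold change of −0.10 (SE 0.485), and 0% of 1725 genes were called. CA1-like cells were not fitted across genes because placebo mouse 3 had 7 of them, under the minimum of 10.

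Among NMDA receptor members Grin2b in glutamatergic-like cells was 1078, 920.5 and 1061 CPM (placebo mice 1, 3 and 5) and 987, 1157 and 904 CPM (EPO mice 2, 4 and 6), with a log2 fold change of −0.05 (SE 0.211). Grin1 was 290, 407 and 225 CPM in placebo and 340, 243 and 288 CPM in EPO mice (−0.06, SE 0.253). Grin2a was 41.2, 10.7 and 32.5 CPM in placebo and 55.1, 40.1 and 27.9 CPM in EPO mice (0.22, SE 0.366). The groups overlapped for these 3 members. Grin3a was 51.1, 32.1 and 49.7 CPM in placebo and 56.5, 53.3 and 59.2 CPM in EPO mice (44.3 ± 10.6 against 56.3 ± 2.95), with a log2 fold change of 0.19 (SE 0.269). Every EPO mouse was above every placebo mouse for Grin3a.

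Among metabotropic members Grm8 in glutamatergic-like cells was 21.3, 10.7 and 15.3 CPM (placebo mice 1, 3 and 5) and 25.4, 33.6 and 23.5 CPM (EPO mice 2, 4 and 6) (15.8 ± 5.32 against 27.5 ± 5.35). Its log2 fold change was 0.64 (SE 0.376, edgeR adjusted p = 1.00), and the groups again did not overlap. Grm5 was 490, 621 and 678 CPM in placebo and 812, 724 and 624 CPM in EPO mice (log2 fold change 0.25, SE 0.215), with overlapping groups. Grm3 ran from 0 to 25.6 CPM in placebo and from 16.9 to 20.02 CPM in EPO mice (0.43, SE 0.545), and Grm7 from 63.1 to 75.3 and from 65.0 to 74.0 CPM (−0.04, SE 0.257).

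Grin3a and Grm8 were also without overlap over all cells (Grin3a 41.1 ± 6.05 against 50.8 ± 5.51 CPM, Grm8 11.9 ± 6.07 against 20.7 ± 2.56 CPM). The gap there was narrow. The highest placebo and the lowest EPO mouse had 45.6 and 46.3 CPM Grin3a, and 16.0 and 18.9 CPM Grm8. For both genes the two-sided exact permutation p of 0.1 is the smallest that 3 against 3 mice can give. Over all cells 3.88% of genes, and in glutamatergic-like cells 4.56%, had every EPO mouse higher, with 1.97% and 1.99% of genes every EPO mouse lower. The separation was kept for both without called doublets, with the shared barcodes left out of EPO mouse 4 or of both mice, and without clusters 2 and 4, and the groups overlapped when mitochondrial UMIs were limited to 20% and when cells were thinned. Within D1 and D2, where 1 arm has 1 mouse, the glutamatergic-like difference of EPO minus placebo was 14.9 and 6.55 CPM for Grin3a and 9.41 and 13.3 CPM for Grm8, whereas for Grm5 it was 257 and −3.38 CPM and for Grin2a 29.1 and 1.51 CPM. In CA1-like cells every member overlapped between groups, with mean values of 52.5 against 57.5 CPM for Grin3a and 4.2 against 4.71 CPM for Grm8. Subiculum-like and deep-layer-like cells, in which Grm8 was high, together held 36.3%, 37.9% and 21.9% of the glutamatergic-like UMIs in placebo mice 1, 3 and 5 and 38.4%, 47.2% and 39.6% in EPO mice 2, 4 and 6. That share was higher in each EPO mouse as well, and its part in the Grm8 values was not tested. Deep-layer-like cells had 34.7 against 53.8 CPM Grm8 (exact permutation p = 0.3), and subiculum-like cells 68.9 CPM in 2 placebo mice against 59.3 CPM in 3 EPO mice.

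**Figure D5:**
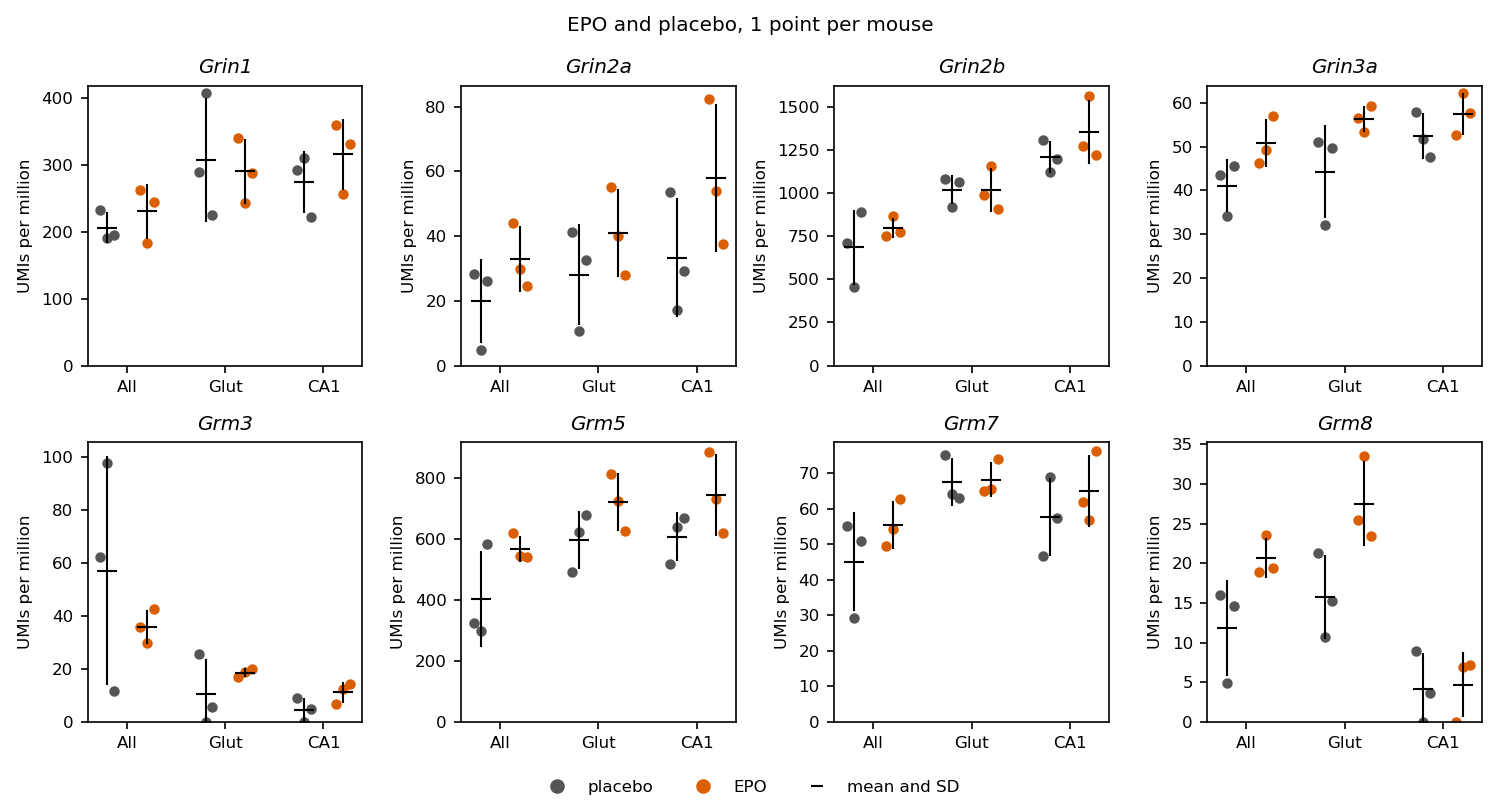
Level of each receptor gene per mouse in all cells, glutamatergic-like and CA1-like cells, in CPM on linear axes from 0; points are mice (grey placebo, orange EPO) and bars the mean and SD of 3 mice. Grin3a and Grm8 do not overlap between groups in all cells and glutamatergic-like cells and do overlap in CA1-like cells.

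Over all cells Grm3 was the member with a log2 fold change below 0, with 62.2, 97.8 and 11.6 CPM (placebo mice 1, 3 and 5) and 35.8, 29.8 and 42.5 CPM (EPO mice 2, 4 and 6) (log2 fold change −0.54, SE 0.587). Astrocyte-like cells gave 6.29%, 12% and 3.54% of UMIs in those placebo mice and 3.75%, 2.44% and 4.00% in those EPO mice. The part of this share in the Grm3 levels was not tested. Within astrocyte-like cells Grm3 had 308 against 343 CPM (exact permutation p = 0.9). The Grin2a share in glutamatergic-like cells was 3.68%, 1.15% and 2.97% in placebo mice 1, 3 and 5 and 5.28%, 3.35% and 2.99% in EPO mice 2, 4 and 6. EPO mice were 1.27 percentage points above placebo mice there, 1.39 in all cells and 1.52 in CA1-like cells, and the groups overlapped in each (exact permutation p = 0.4). At most 20% mitochondrial UMIs per cell left them without overlap over all cells (1.99 points) and in glutamatergic-like cells (1.91 points; exact permutation p = 0.1 each, the smallest possible), and the difference was 1.93 points in CA1-like cells (exact permutation p = 0.3). The value of placebo mouse 3 rested on 1 of 87 UMIs. In glutamatergic-like cells the difference was 2.87 points within D1 and 0.199 within D2, and it turned to −1.29 when cells were thinned.

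A list of 42 further genes of glutamate signalling was read beside the members, with 6 other receptors, 15 scaffold genes, 15 effectors and 6 genes of glutamate supply and uptake. In oligodendrocyte-like cells 26 of them were tested, 5 higher and 20 lower than in glutamatergic-like cells (median log2 fold change −3.05, against −0.12 over all genes). Of all genes 29.5% were called higher and 35.1% lower there. Camk2a, a subunit of the calcium-dependent kinase that binds NMDA receptors, fell by 4.53 (SE 0.278, edgeR adjusted p = 4.56e-21), and the postsynaptic scaffold Dlgap1 fell by 4.74 (SE 0.291, adjusted p = 4.84e-21), beside Grin2b at −4.30. Glul, the glutamine synthetase of glia, was higher by 4.64 (SE 0.204, adjusted p = 3.01e-27). In astrocyte-like cells 17 were tested, 4 higher and 12 lower (median −1.90 against −0.19), where 23.7% of all genes were called higher and 33.8% lower. The list genes called higher were Slc1a3 and Slc1a2, the glial glutamate transporters, and Glul, with log2 fold changes of 7.95, 5.93 and 6.66, and the other was the G protein subunit Gnai2 with 3.16. In OPC-like cells 31 were tested, 3 higher and 18 lower (median −2.29 against −0.40), where 7.26% of all genes were called higher and 16.2% lower.

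Among neurons the medians of the list were closer to 0. In GABAergic-like cells 33 were tested, 2 higher and 9 lower (median −0.53 against −0.10), where 4.14% of all genes were called higher and 5.57% lower. Camk2a was lower, with a log2 fold change of −2.48 (SE 0.336, edgeR adjusted p = 4.19e-07). The scaffold Homer1, which ties mGlu5 to its partners, was at −1.99 (SE 0.384, adjusted p = 0.000213). Between subiculum-like and CA1-like cells 31 were tested, 5 higher and 12 lower (median −0.47 against 0.01), where 12.8% of all genes were called higher and 13.5% lower. Plcb4, a phospholipase C downstream of Gq, was higher in subiculum-like cells, at 129 against 14.8 CPM (log2 fold change 3.03, SE 0.273, edgeR adjusted p = 7.48e-12), while Gnaq, the Gq subunit itself, was lower, at 288 against 519 CPM (−0.98, SE 0.141, adjusted p = 5.70e-07). Between deep-layer-like and CA1-like cells 25 were tested, 6 higher and 5 lower (median −0.15 against −0.03). Of all genes 23.8% were called higher and 25.3% lower there, and the counts of the list lie near these shares. With total UMIs 3 were higher and 14 lower, where calls over all genes shifted to lower as well. Between EPO and placebo 0 of 35 genes passed over all cells, 0 of 34 in glutamatergic-like cells and 0 of 6 in oligodendrocyte-like cells, where 0% of all genes were called in each.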

How the data were processed

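From Drop-seq of CA1 the authors deposited 1 table with UMI counts of each gene in each barcode, not normalized, with bcl2fastq 2.15, STAR 2.4.0 and mm10 named in the submitters' processing notes. Genes given as missing in a mouse were set to 0. Barcodes with 1001 to 8000 genes and at most 40% mitochondrial UMIs were retained. Counts were scaled to 10000 per cell, integrated between treatments on 20 dimensions and clustered at resolution 1 with Seurat 5.3.0 in R 4.3.3, with 24 glutamate receptor genes left out of the variable genes, and clusters were named by marker lists. Doublets, marked by Scrublet (scanpy 1.11.5) in 0.369% to 4.05% of cells and in 18.6% for placebo mouse 3, were kept.

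UMIs were summed per mouse and type (at least 10 cells for EPO, 5 between types) and tested with edgeR 4.0.16, by quasi-likelihood with trimmed-mean scaling and a filter on low counts, at an adjusted p of 0.05. The fit was also run on simulated data, whose outcome is not reported here. For types, those data had no shift shared by the sums of a mouse. They also held fewer changed genes than were called between types, so they differ from the data there. limma 3.58.1 and DESeq2 1.42.0 were alternatives. CA1-like cells were not fitted between treatments because placebo mouse 3 had 7, under the 10 required. Single values were compared by exact permutation in Python 3.11.15 with scipy 1.17.1. For the level of a member, pairs of neighbouring types were picked by its mean levels, and their p values were not adjusted. Intervals are exact at 95%, a count of 0 allows 3 counts, and both cover counting error only. With 3 mice per group permutation cannot give a p below 0.1. Gene spans come from GENCODE vM21 and promoters from RefSeq.

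The members, marker lists and pathway list were chosen with earlier results of these data known. Named genes are the members, for each member the 3 genes with the most similar levels, and up to 5 pathway genes per direction past the threshold in a comparison, of which some are named and some are not reported here. Comparisons of subiculum-like and deep-layer-like with CA1-like cells, and those without shared barcodes or without CA1-like clusters 2 and 4, were added after seeing the data.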

Additional observations from a re-analysis of the deposited data

Results flagged for a closer look

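Barcodes outside the limits on genes and mitochondrial UMIs entered no comparison, and each of the 8 members had UMIs in them, above the level that a count of 0 allows. In these barcodes, pooled over mice, Grin2b reached 565 CPM (798 CPM in retained cells), Grm5 289 CPM (517), Grin1 142 CPM (217), Grm7 35.7 CPM (54.1) and Grm8 5.46 CPM (18.7). Grin2a stood at 37.1 CPM (29.1), Grin3a at 41.1 CPM (48.3) and Grm3 at 64.4 CPM (37.0). Grm3, the member that was highest in astrocyte-like cells, and Grin2a were thus higher outside the limits, and the other 6 lower. These values were not tested. With 3 mice in each group, single mice far from their group could not be tested for either.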

How the results depend on the processing

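Of 1551 values of members and pathway genes between cell types under other settings 1464 kept their direction and side of the threshold, 56 lost and 19 gained significance and 12 reversed. Of 281 values for EPO 26 reversed, none of them past the threshold. Over all cells Grin1 turned to −0.0289 without shared barcodes in both mice and Grm3 to 0.18 with the D number as replicate block, the only pairing the labels offer. In glutamatergic-like cells Grin1 was 0.14 with that block, 0.11 at 20% mitochondrial UMIs, 0.00576 without doublets and 0.45 thinned, Grin2b 0.21 thinned, and Grm7 0.000946 with total UMIs, 0.0136 with the block and 0.0230 thinned. In oligodendrocyte-like cells Grm3 was 0.0179 in limma and 0.18 with the block. Between types OPC-like Grin3a was −0.45 without the filter, subiculum-like Grm7 0.0524 with total UMIs, 0.0218 at 20% mitochondrial UMIs, 0.0443 without CA1-like cluster 2 and 0.20 without clusters 2 and 4, deep-layer-like Grin2b 0.12 without clusters 2 and 4, and deep-layer-like Kalrn −0.0615 with total UMIs. The Grin2a share difference of EPO minus placebo turned to −0.359 (all cells), −1.29 (glutamatergic-like) and −1.80 points (CA1-like) when thinned. Between types at 20% mitochondrial UMIs it was 1.05 for CA1-like minus deep-layer-like, −1.06 for deep-layer-like minus subiculum-like and 1.15 for CA1-like minus GABAergic-like cells. The cause of these reversals was not tested.

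Genes called for EPO were 1 with DESeq2, 52 without the filter and 1 with the block over all cells, 11 without the filter in glutamatergic-like and 2 in oligodendrocyte-like cells. Without the filter 5294 genes were called for oligodendrocyte-like and 3568 for astrocyte-like cells, and 1006 for subiculum-like cells without CA1-like clusters 2 and 4. Leaving out each mouse in turn gave 0 to 0 genes for EPO over all cells, 0 to 7 in glutamatergic-like cells (7 without placebo mouse 5), 0 to 0 in oligodendrocyte-like cells, 2167 to 4165 between oligodendrocyte-like and glutamatergic-like cells, 767 to 2247 for astrocyte-like, 968 to 1480 for OPC-like, 385 to 777 for GABAergic-like, 1249 to 1751 for subiculum-like and 1215 to 2194 for deep-layer-like cells. Log2 fold changes for EPO over all cells then ran from −0.0511 to 0.24 (Grin1) and −0.0266 to 0.35 (Grin2b), and in glutamatergic-like cells from −0.29 to 0.14 (Grin1), −0.0558 to 0.50 (Grin2a), −0.16 to 0.0833 (Grin2b), −0.29 to 1.85 (Grm3) and −0.18 to 0.11 (Grm7), with −0.26 to 0.33 for Grm3 in oligodendrocyte-like cells. Between types OPC-like Grin3a ran from −0.43 to 0.35, GABAergic-like Grm8 from −7.41 to 0.20 and subiculum-like Grm7 from −0.30 to 0.0523. The EPO difference of the Grin2a share ran from 0.607 to 2.02 (all cells), 0.549 to 1.81 (glutamatergic-like) and 0.542 to 2.18 points (CA1-like). Between types it ran from 0.136 to 2.29 (CA1-like minus subiculum-like), −1.01 to 0.723 (minus deep-layer-like), 0.734 to 1.78 (deep-layer-like minus subiculum-like) and −3.34 to 0.55 points (CA1-like minus GABAergic-like). Resolutions of 0.6 and 1.5 gave the same types. Depth limits Grin2a, Grm3 and Grm8 most, with 129 to 256 UMIs each, and the fit of CA1-like cells for EPO was not run.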

Other observations

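For each member up to 3 genes with the most similar levels were taken over 27 sums per mouse and cell type, among 7250 genes, by Pearson's r of log2(CPM + 10). The sums of a type share libraries and cells, so r is a description across types rather than a test. Grin1 ran closest with Celf5 (r = 0.962), Syt7 (0.959) and Add2 (0.956), Grin2b with Tenm2 (0.965), Atp2b3 (0.947) and Cx3cl1 (0.941), and Grm5 with Epha5 (0.960), Ttc3 (0.952) and Cdk14 (0.949). Grin2a ran closest with Slit3 (0.945), ahead of Slc35f3 (0.896) and Camk2a (0.894), the kinase subunit named above. These 4 members had closer partners than the other 4. Grin3a reached 0.862 with Map2, a dendritic protein of neurons, and 0.854 with Nrxn2, and Grm7 0.865 with Cntn3, 0.817 with Myo9a and 0.815 with Plcl2. Grm3 ran with Hepacam (0.900), an adhesion protein of astrocytes and oligodendrocytes, Acsl3 (0.888) and Mt1 (0.875). Grm8 ran with Rxfp1 (0.891), which is also in the marker list of deep layers, Tmem91 (0.868) and Plekha7 (0.858).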
